A study of Brassica napus with 12 samples.

Results

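The response of a submergence-resistant pool of rapeseed (*Brassica napus*) to 24 h under water was described across 54189 genes of the 109614 in the table of expression values. These genes had at least 1 RPKM (reads per length of gene, relative to all mapped reads) in at least 3 of 6 libraries, which were 3 submerged and 3 control libraries of that pool. Of them, 24192 carried an A chromosome in their identifier, 25572 a C chromosome and 1310 a scaffold, and 3115 were labelled as new genes. Rapeseed is a young polyploid that carries an A and a C subgenome, and each sample mixed 5 germplasm that the labels call resistant. Seedlings of 1 week, with open cotyledons and a first true leaf, had grown on moist paper at 25 °C by day and 22 °C by night with 16 h of light and 8 h of dark. The submerged group was covered completely with distilled water for 24 h, and the control group was kept under normal conditions. A susceptible pool, also of 5 germplasm, was handled in the same way with 3 libraries a group, and it served for the test of whether a response differed between pools. Because germplasm were mixed before sequencing, differences among the 5 were not measured, and the resistance of the pool cannot be told apart from the identity of the germplasm in it.

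Water slows gas exchange so strongly that submerged plant tissue runs short of oxygen for respiration and of carbon dioxide for photosynthesis. In *Arabidopsis thaliana*, a relative of rapeseed, low oxygen stabilises the group VII ethylene response factors, which switch on genes of fermentation and sugar use, while costly processes such as ribosome production are held back. The identifiers of the table matched none of the 123214 entries of the reference table of genes, so the genes of these pathways could not be picked out, the seedling tissue could not be checked by marker genes, and genes are described by level, by the class in the identifier and by size of response. RNA came from whole seedlings in bulk, so fewer cells of a type and less RNA per cell cannot be told apart. RPKM is relative to the mapped reads of a library, so the amount of RNA per seedling was not measured either.

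The 2 groups of libraries were well separated. Pearson correlations of log2(RPKM + 1) over the 54189 genes were 0.954 to 0.963 among controls, 0.969 to 0.979 among submerged libraries and 0.845 to 0.871 between the groups. The lowest values of a gene put the depth of the controls at 1, 0.847 and 0.637 of the deepest library and that of the submerged libraries at 0.901, 0.892 and 0.936, while absolute depth is unknown. Control 3 and submerged 2 stood apart in genes on scaffolds and on chromosome A05, and less so on A09. After subtraction of each gene's mean and the library's mean, scaffold genes averaged -0.28, -0.004 and 0.45 log2 in controls 1 to 3 and -0.18, 0.25 and -0.24 in submerged libraries 1 to 3. Genes of A05 averaged -0.069, -0.005 and 0.15 in the controls and -0.087, 0.12 and -0.11 in the submerged libraries. Control 3 was thus the highest of the controls, and submerged 2 the highest of the submerged libraries, in both sets of genes.

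More genes fell than rose. Of the 54189 genes, 14858 (27.4%) were lower and 6631 (12.2%) were higher in submerged than in control seedlings, by limma's moderated test with a Benjamini-Hochberg adjusted p under 0.05. These include 1571 falls of genes that reached 1 RPKM in the 3 controls alone and 613 rises of genes that did so in the 3 submerged libraries alone. The inclusion rule separates the groups of such genes by itself. Among the 46040 genes at 1 RPKM or more in all 6 libraries, 5497 were higher and 11866 lower. Over all 57391 genes tested in the table, 26.7% were called lower and 11.9% higher, so the 54189 genes, which make up most of that table, stood close to it. A larger part of the rises than of the falls reached 2-fold. Among changes of at least 2-fold on the log2(RPKM + 1) scale, 3258 were rises and 3289 were falls, whereas of the changes under 2-fold 3373 were rises and 11569 were falls. These counts by size were not taken again without the genes that the inclusion rule separates. The median change of all 54189 genes was -0.23 log2, with quartiles of -0.50 and 0.13.

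The balance of rises and falls moved with the scaling of the libraries, and the median over all genes tested moved with it. That median was -0.22 log2 for the RPKM as deposited, -0.037 after median ratio scaling and -0.066 after quantile normalization. Rises made up 30.9% of the calls for the deposited values, 54.4% after median ratio scaling (9765 higher and 8176 lower) and 48.1% after quantile normalization (8542 and 9231). Of the 6631 rises, 6630 were called after median ratio scaling and 6460 after quantile normalization, and of the 14858 falls 8176 and 9096. No gene called in one direction was called in the other under either scaling. The near balance of changes of at least 2-fold moved too. There were 4194 such rises and 1985 such falls after median ratio scaling, and 3846 and 2434 after quantile normalization. With a pseudocount of 0.1 in place of 1 there were 3855 such rises and 5677 such falls. Below, changes are those of the deposited values, and where they are set against the median of all 54189 genes this is said.

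The called genes held a large part of the transcript pool. The genes called higher held 12.3% ± 0.277 (SD, n = 3) of the summed RPKM in controls and 30.2% ± 0.722 in submerged seedlings, and those called lower held 30.2% ± 1.05 and 14.7% ± 0.218. The 32700 genes not called held 56.4% ± 1.22 and 54.2% ± 0.891. These shares describe genes that were chosen by the same values. The change was spread over many genes, since the 10 largest rises made up 6.26% of the summed increase, the 100 largest 24.9% and the 1000 largest 67.6%. For the falls, the 10, 100 and 1000 largest made up 5.89%, 24.2% and 56.8% of the summed decrease.

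Fewer genes were detected under water. Genes at 1 RPKM or more numbered 53797, 54540 and 54129 in controls 1 to 3 and 50679, 51209 and 50973 in submerged libraries 1 to 3. Every submerged library was below every control, with means of 54155 ± 372 and 50954 ± 266 genes (SD, n = 3). Genes at 10 RPKM or more numbered 17815, 18647 and 18050 in controls and 16403, 17052 and 16742 in submerged libraries, again without overlap. After median ratio scaling the difference at 1 RPKM shrank from -3202 to -1351 genes, and that at 10 RPKM turned from -1438 to 1161 genes. Fewer genes were also needed to make up 50% of the summed RPKM. That number, a measure chosen after seeing the data, was 3696, 4478 and 3910 in controls and 3207, 3372 and 3450 in submerged libraries, and the groups did not overlap. In the susceptible pool the means moved in the same direction. The differences there were -3523 genes at 1 RPKM, -1065 at 10 RPKM and -578 in the number that makes up 50%.

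New genes took 4.69%, 4.93% and 4.92% of the summed RPKM in controls and 4.01%, 4.01% and 4.09% in submerged libraries. Submerged libraries were again all lower, with a difference of -0.809 percentage points between the means, and of -0.642 without the 100 genes of the highest mean. The difference between the means was -0.584 points in the susceptible pool. The 100 most abundant genes of each library held 10.7%, 8.49% and 10.5% in controls and 10.3%, 10.3% and 9.24% in submerged seedlings, so the groups overlapped. The difference of 0.0637 points turned to -0.631 without control 2, to -0.119 without submerged 1 and to -0.108 without submerged 2. The shares of A genes (45.5% ± 0.539 in controls, 45.8% ± 0.213 in submerged), C genes (48.4% ± 1.00 and 49.1% ± 0.406) and scaffold genes (1.25% ± 0.363 and 1.00% ± 0.239) overlapped as well. With 3 libraries a group the exact 2-sided permutation test cannot give a p below 0.1, which was the value for the 4 measures without overlap, and 0.2 after adjustment over the 8 measures tested. For the others the exact permutation p was 0.3 for A genes, 0.4 for C genes, 0.5 for scaffold genes and 1 for the 100 most abundant genes (adjusted 0.48, 0.533, 0.571 and 1).

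**Figure D1:**
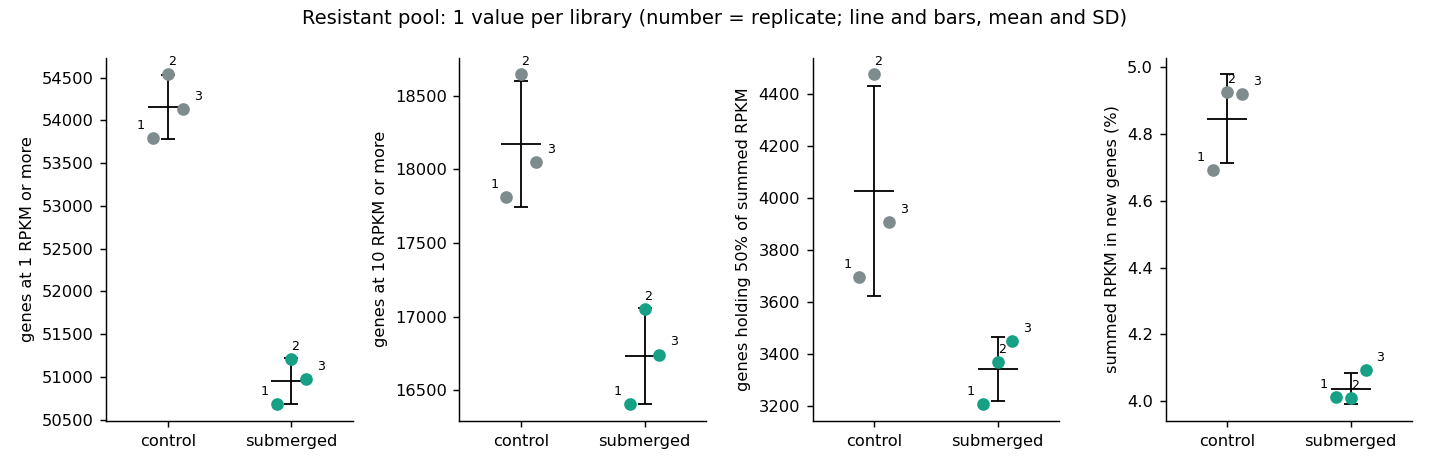
Genes at 1 RPKM or more, genes at 10 RPKM or more, genes that hold 50% of the summed RPKM, and percent of summed RPKM in new genes, in each of the 3 control and 3 submerged libraries of the resistant pool. Each point is a library with its replicate number, the line and bars are the mean and SD, and the axes do not start at 0. For the deposited values shown, every submerged library lies below every control in all panels. After median ratio scaling, which is not shown, every submerged library was above every control in genes at 10 RPKM or more.

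The direction of the response went with the level of the gene. Genes were sorted into 8 classes by their mean over the 6 libraries. Under 2 RPKM, 648 of 9185 genes were called higher (7.05%) and 2787 lower (30.3%), and at 2 to 5 RPKM 8.47% of 15042 were higher and 30.1% lower. From there the share of rises grew with each class, through 10.6% of 11993 genes at 5 to 10 RPKM, 15.1% of 9085 at 10 to 20, 20.8% of 6096 at 20 to 50 and 27.5% of 1775 at 50 to 100. It was highest, at 30.8%, among the 929 genes of 100 to 500 RPKM, where 286 were higher and 206 lower. The share of falls dropped over the same classes from 30.3% to 19.4% at 50 to 100 RPKM and was 22.2% at 100 to 500. Rises therefore made up 18.9% of the calls in the lowest class and 58.1% at 100 to 500 RPKM. The 84 genes of 500 RPKM or more left this order, with 18 higher and 18 lower. Without a filter on low values 11.9% of them were higher in place of 21.4%. The inclusion rule bears on the lowest classes. The 1770 genes at the minimum in the 3 controls alone had a median mean level of 1.15 RPKM and included 1571 falls. The 667 genes at the minimum in the 3 submerged libraries alone had a median of 1.45 RPKM and included 613 rises. The shares by level were not counted again without these genes.

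The medians followed the same course. The median change was -0.27 log2 under 2 RPKM, -0.24 at 5 to 10, -0.07 at 20 to 50, 0.07 at 50 to 100 and 0.10 at 100 to 500 RPKM, or 0.32 above the median of all genes in the last of these, and it was -0.13 at 500 RPKM or more. The median standard error of a gene's change was 0.158 to 0.233 log2 across the classes. The spread between replicates was lower in submerged libraries in every class, with a median SD of 0.137 to 0.165 log2 against 0.160 to 0.278 in controls. Large changes took the same order: at least 2-fold changes were 254 rises and 407 falls under 2 RPKM but 304 rises and 160 falls at 50 to 100 RPKM.

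The order by level was tried with other scalings and with another measure of level. After median ratio scaling rises made up 33.0% of the calls under 2 RPKM, 53.5% at 5 to 10, 75.3% at 50 to 100 and 70.7% at 100 to 500. Quantile normalization, which gives every library the same distribution of values by construction, left 46.1% to 52.6% in all classes, and the medians at 50 to 100 and 100 to 500 RPKM were then slightly below 0. With the level taken from the 6 susceptible libraries, rises made up 16.4% of the calls under 2 RPKM and 62.9% at 100 to 500. Those 6 include submerged libraries, and most of the strong responses were also called in that pool. A shared response therefore enters this level too, so it is not a measure of level independent of the response. A level from control libraries alone was not tried. With a resistant library left out, rises made up 18.6% to 20.5% of the calls in the lowest class and 55.3% to 60.2% at 100 to 500. In the susceptible pool 6.59% of the lowest class were higher and 30.1% lower, against 27.8% and 22.5% at 100 to 500 RPKM, and the difference between the pools in this order was not tested.

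The distribution of levels widened accordingly. Sorted within each library, the gene at the 5th percentile of the 54189 had 1.14 RPKM on average in controls and 0.845 in submerged seedlings. The median gene had 6.06 and 5.20 RPKM, the 75th percentile 13.6 and 12.7, and the 90th percentile 30.1 and 30.4. At the 99th percentile the values were 154 and 169 RPKM, and at the 99.9th 664 and 605. For the deposited values, levels in submerged seedlings were thus lower up to the 75th percentile and nearly the same at the 90th. They were higher at the 99th, but not at the extreme top. Median ratio scaling divides controls by 1.13 to 1.16 and submerged libraries by 0.949 to 0.979, which moves every percentile upward in submerged seedlings relative to controls. The percentiles were not taken after that scaling. The 5th lies near the minimum of 1 RPKM by which the genes were chosen.

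**Figure D2:**
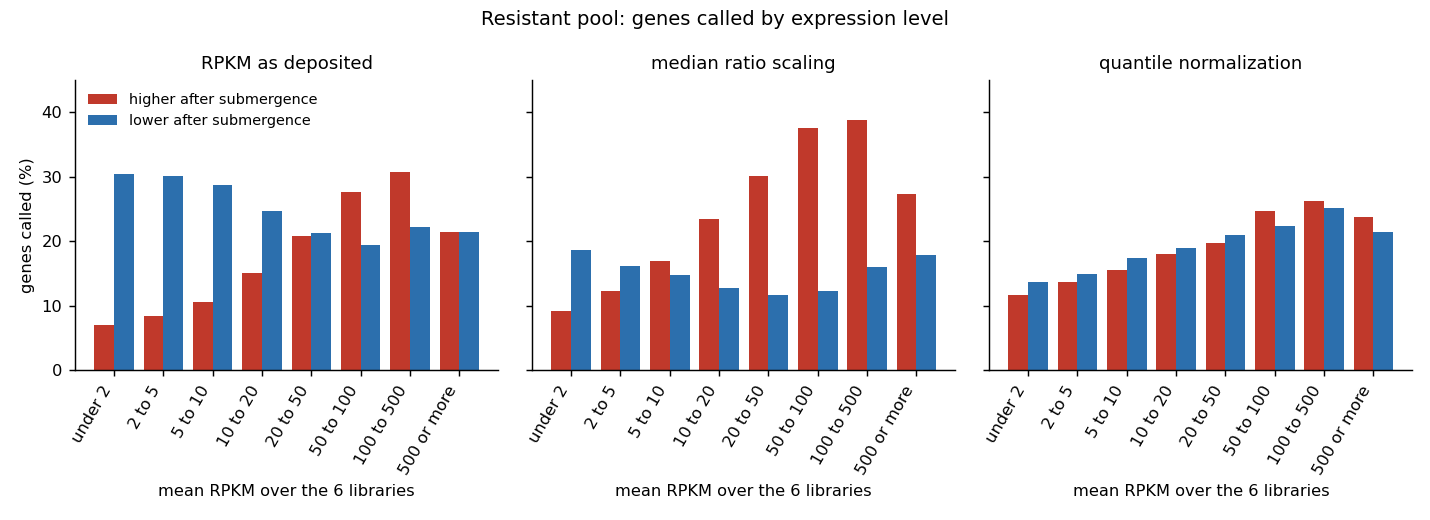
Percent of genes called higher (red bars) and lower (blue bars) after submergence by mean RPKM over the 6 resistant libraries, for the values as deposited and for both other scalings. Rises grow from 7.05% of genes under 2 RPKM to 30.8% at 100 to 500 RPKM for the values as deposited, whereas after quantile normalization rises and falls are close to each other in every class.

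The genes with the greatest change in mean RPKM, among called genes whose resistant groups did not overlap, were followed in every library. The greatest gain was that of BnaC04G0380700ZS, on chromosome C04, with 2449, 2201 and 2337 RPKM in controls and 4076, 4305 and 3502 RPKM in submerged seedlings. It stood 1.70-fold higher, 0.76 log2 ± 0.21 (SE), with an adjusted p of 0.0136 in limma. The next was BnaA04G0101200ZS on A04, with 2186, 1801 and 2162 RPKM in controls and 3591, 3652 and 3259 RPKM under water. It stood 1.71-fold higher, 0.78 log2 ± 0.23, with an adjusted limma p of 0.0186. These were the second and the third most abundant of the 54189 genes by mean RPKM. That every submerged library was above every control in both genes follows from how they were chosen.

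Both calls were near the threshold. Without submerged 2 the adjusted limma p of BnaC04G0380700ZS was 0.0559, and without a filter on low values it was 0.399. For BnaA04G0101200ZS the adjusted p was 0.0609 without control 2, 0.0564 without submerged 1, 0.0607 without submerged 2, 0.0831 after quantile normalization and 0.369 without a filter. In the susceptible pool BnaC04G0380700ZS had 1720, 1553 and 1971 RPKM in controls and 2918, 3954 and 2328 RPKM in submerged libraries, a change of 0.78 log2. For BnaA04G0101200ZS the values were 1607, 1577 and 2087 RPKM in controls and 2614, 3761 and 2062 RPKM under water, where the groups overlapped. The difference between the pools was -0.02 log2 ± 0.29 for the first and 0.13 ± 0.32 for the second gene, with adjusted limma p of 0.985 and 0.905.

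The greatest loss was that of BnaC06G0389200ZS on C06, from 1478, 1594 and 1369 RPKM in controls to 50.5, 85.5 and 44.5 RPKM in submerged seedlings. It fell 24.6-fold, -4.65 log2 ± 0.29, with an adjusted limma p of 1.24e-06. In the susceptible pool it had 1760, 1850 and 1483 RPKM in controls and 371, 788 and 458 RPKM in submerged libraries, so its level under water was higher there in every library. The response of the resistant pool minus that of the susceptible pool was -2.93 log2 ± 0.41, with an adjusted limma p of 0.0226. That p was 0.0642 without control 3, 0.0661 without submerged 1, 0.0566 without submerged 3 and 0.0529 after quantile normalization.

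The second greatest loss was that of BnaC04G0080200ZS on C04, from 1569, 1542 and 1275 RPKM to 394, 531 and 501 RPKM. It fell 3.08-fold, -1.62 log2 ± 0.34, with an adjusted limma p of 0.00345. In the susceptible pool it had 988, 739 and 1708 RPKM in controls and 102, 243 and 123 RPKM under water, a change of -2.88 log2. The difference of 1.26 log2 between the responses did not pass, with an adjusted limma p of 0.30. Reads that fit both the A and the C copy of a gene may be split or lost, so the level of each of these single copies is uncertain.

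**Figure D3:**
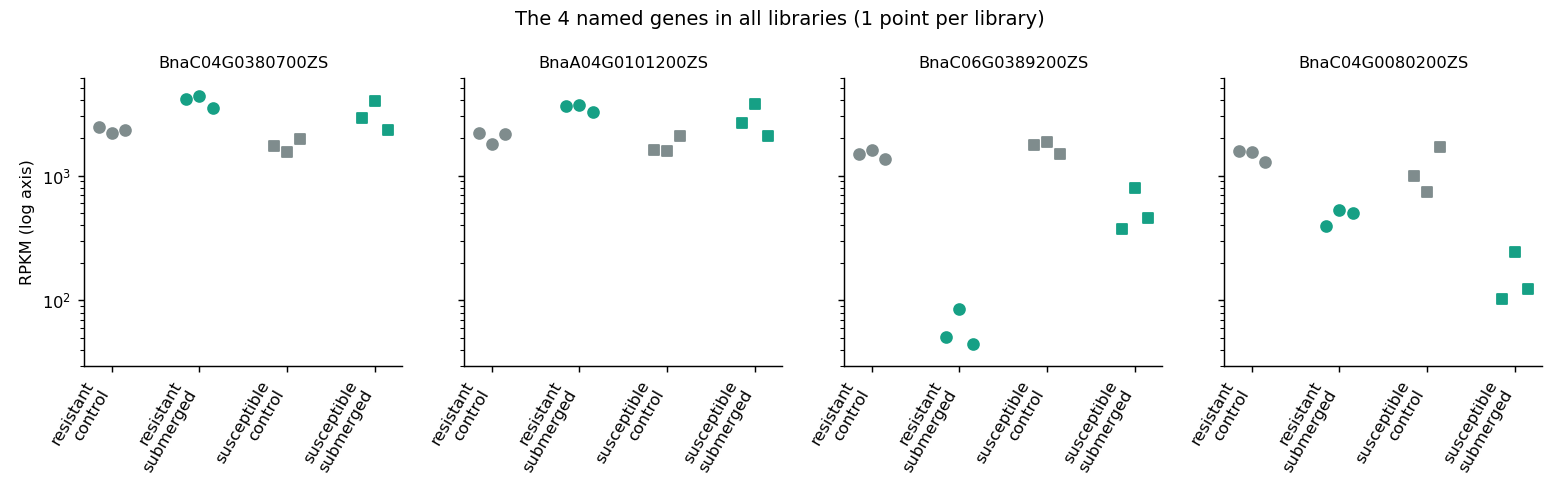
RPKM in each of the 12 libraries, on a log axis, for the pair of genes with the greatest gain and the pair with the greatest loss in the resistant pool. Resistant submerged libraries lie apart from resistant controls in every panel, which was a condition of the choice of genes. BnaC06G0389200ZS is at 44.5 to 85.5 RPKM under water in the resistant pool against 371 to 788 in the susceptible pool.

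Strong rises began from low levels and strong falls from high ones. The 218 genes that rose at least 8-fold had a median of 2.44 RPKM in controls and 47.6 RPKM in submerged seedlings. The 616 genes that rose 4- to 8-fold went from a median of 3.86 to 25.0 RPKM, and the 2424 that rose 2- to 4-fold from 5.40 to 16.2 RPKM. Conversely, the 93 genes that fell at least 8-fold went from a median of 48.8 to 2.91 RPKM, the 334 that fell 4- to 8-fold from 19.9 to 3.19 and the 2862 that fell 2- to 4-fold from 9.55 to 3.26 RPKM. The pseudocount of 1 RPKM bears on this order, since on that scale a gene can fall 8-fold only from a level well above 1 RPKM. The genes were also grouped by the change between these same values. That by itself favours low control levels among strong rises and high ones among strong falls. Of the 93 genes with the strongest falls 16 were new genes (17.2%), as were 12 of the 218 with the strongest rises (5.50%), while new genes were 5.75% of the 54189.

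Few genes went from absent to present or the reverse. All 6 libraries had at least 1 RPKM for 46040 genes. In 1770 genes the minimum was reached in the 3 controls alone, with a median mean level of 1.15 RPKM, and in 667 genes in the 3 submerged libraries alone, with a median of 1.45 RPKM. The inclusion rule separates the groups of these genes by itself, so nothing is read from the 1571 of the former that were called lower and the 613 of the latter that were called higher. They included 7 genes listed at 0 in all submerged libraries and 11 listed at 0 in all controls, none with a mean above 3.70 RPKM. Among the 46040 genes present throughout, 5497 were called higher and 11866 lower.

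Most of the strong responses were also called in the susceptible pool, where 12% of all genes tested were called higher and 28.6% lower. Of the 218 genes that rose at least 8-fold, 207 (95%) were also higher there, as were 580 (94.2%) of the 616 that rose 4- to 8-fold, 85% of those that rose 2- to 4-fold and 58.6% of those under 2-fold. Of the falls, 90 of 93 (96.8%), 93.1%, 80.6% and 65.7% were also lower there, in the same order. Opposite calls were 28 rises and 34 falls under 2-fold, 6 of each at 2- to 4-fold, 3 rises at 4- to 8-fold and none in either direction at 8-fold or more. The median change of the genes up at least 8-fold was 3.51 log2 in the resistant and 2.86 log2 in the susceptible pool, and that of the genes down at least 8-fold was -3.39 and -2.88. These genes were chosen by size in the resistant pool, which by itself makes their values there the larger ones, and both calls rest on 1 estimate of a gene's spread.

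The difference between the pools was itself called in 168 of the 54189 genes, against 0.333% of all genes tested (191 of 57391). The response was higher in the resistant pool for 95 and lower for 73, and 139 of the 168 were also called in the resistant response, 85 higher and 54 lower. The resistant response is a term of that difference, which raises this overlap by itself. At an unadjusted p under 0.05 there were 7059 genes. Fewer genes were called whichever resistant library was left out. There were 22 without control 3, and as many without submerged 1. The count was 46 without submerged 3, 74 without submerged 2, 76 without control 1 and 104 without control 2. Each of these fits has fewer libraries in a group, and the part of this in the lower counts was not tested. Of the genes that rose at least 8-fold 27 were among the 168, and of those that fell at least 8-fold 2 were.

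**Figure D4:**
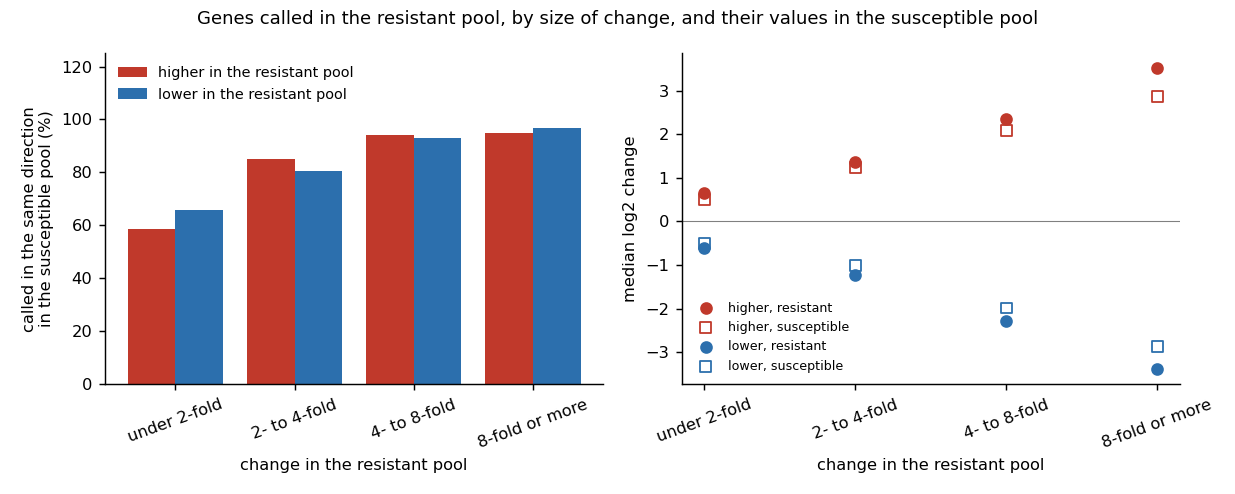
Genes called higher or lower in the resistant pool by size of change: percent called in the same direction in the susceptible pool (bars) and median log2 change in the resistant (filled points) and susceptible pool (open squares). The percent called alike goes from 58.6% of rises and 65.7% of falls under 2-fold to 95% and 96.8% at 8-fold or more.

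Gene classes differed in how many of their genes were expressed. At the minimum level were 54.5% of the A genes listed, 48.7% of the C genes, 35.8% of the new genes and 32.8% of the scaffold genes, with median levels of 6.35, 5.91, 3.18 and 3.21 RPKM. The median change was -0.22 log2 on A and -0.20 on C chromosomes, an order that turned without control 3 (-0.18 and -0.22) and without submerged 3 (-0.21 and -0.22). On A chromosomes 2997 genes (12.4%) were higher and 6333 (26.2%) lower, and on C chromosomes 3284 (12.8%) were higher and 7457 (29.2%) lower. The share of falls was higher on C than on A in each of the 8 level classes, for example 32.4% against 29.1% under 2 RPKM and 22.9% against 20.1% at 20 to 50 RPKM. In the susceptible pool the shares of falls were 29.9% on A and 29.1% on C chromosomes, and under 2 RPKM the order was the other way, with 33.3% on A and 30.7% on C. The difference between the pools in this respect was not tested. Chromosomes A05 and A09 had the lowest shares of falls, 20.6% and 22.9%, but also the lowest median changes, -0.35 and -0.26 log2. Both count towards the A chromosomes, and the shares of A and C by level were not compared without them. Apart from these, A chromosomes ran from 24.1% (A01) to 30.3% (A08) for falls and C chromosomes from 26.6% (C01) to 31.1% (C05). For rises, the 17 chromosomes other than A05 and A09 ran from 11.5% (A06) to 14.4% (A04). Their median changes ran from -0.24 log2 (A06) to -0.17 log2 (A04). A05 also had the lowest share of rises, 9.15%, and the highest median standard error, 0.199 log2 against 0.157 to 0.174 on chromosomes other than A05 and A09. The part in these counts and medians of the libraries that stood apart on A05 was not tested.

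New genes had the highest share of falls of the 4 classes in the resistant pool. Of the 3115, 281 (9.02%) were called higher and 974 (31.3%) lower, with a median change of -0.33 log2. That is 0.11 below the median of all 54189 genes. After median ratio scaling 399 were higher and 599 lower, after quantile normalization 394 and 587, so falls outnumbered rises among new genes under all 3 scalings. Most new genes were under 5 RPKM, where their share of falls was the highest of the 4 classes. Under 2 RPKM 34.9% of 1001 new genes fell against 29.1% of A and 32.4% of C genes, and at 2 to 5 RPKM 34.2% of 958 did, against 29.1% and 31.9%. At 5 to 10 RPKM 28.1% of 549 new genes fell, between the 27.8% of A and the 30.6% of C genes. At 20 to 50 RPKM 15.6% of new genes rose against 20.01% of A and 22.1% of C genes. Of the 6 new genes at 500 RPKM or more, 1 was called higher and 4 lower. In the susceptible pool 8.80% of the 3115 were higher and 25.5% lower, with a median of -0.19 log2. That share of falls was below the 29.9% of A and the 29.1% of C genes there. Under 2 RPKM 24.5% of new genes fell in the susceptible pool, against 33.3% of A and 30.7% of C genes. The difference between the pools for the class was not tested.

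Scaffold genes were called least often. Of the 1310, 69 (5.27%) were higher and 94 (7.18%) lower, with a median change of -0.35 log2. That median rested on single libraries: it was -0.60 without control 1 and -0.57 without submerged 2, but -0.21 without submerged 3 and -0.08 without control 3, when it was the highest of the 4 classes. Their replicates differed more, with a median SD of 0.54 log2 in controls and 0.39 in submerged libraries and a median standard error of 0.33 log2, against 0.16 to 0.19 in the other classes. In each level class up to 50 RPKM 4.14% to 10.1% of scaffold genes were higher and 5.56% to 8.62% lower. When a resistant library was left out, 4.05% to 4.81% were higher and 5.57% to 6.11% lower. The part of control 3 and submerged 2 together in the few calls was not tested.

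**Figure D5:**
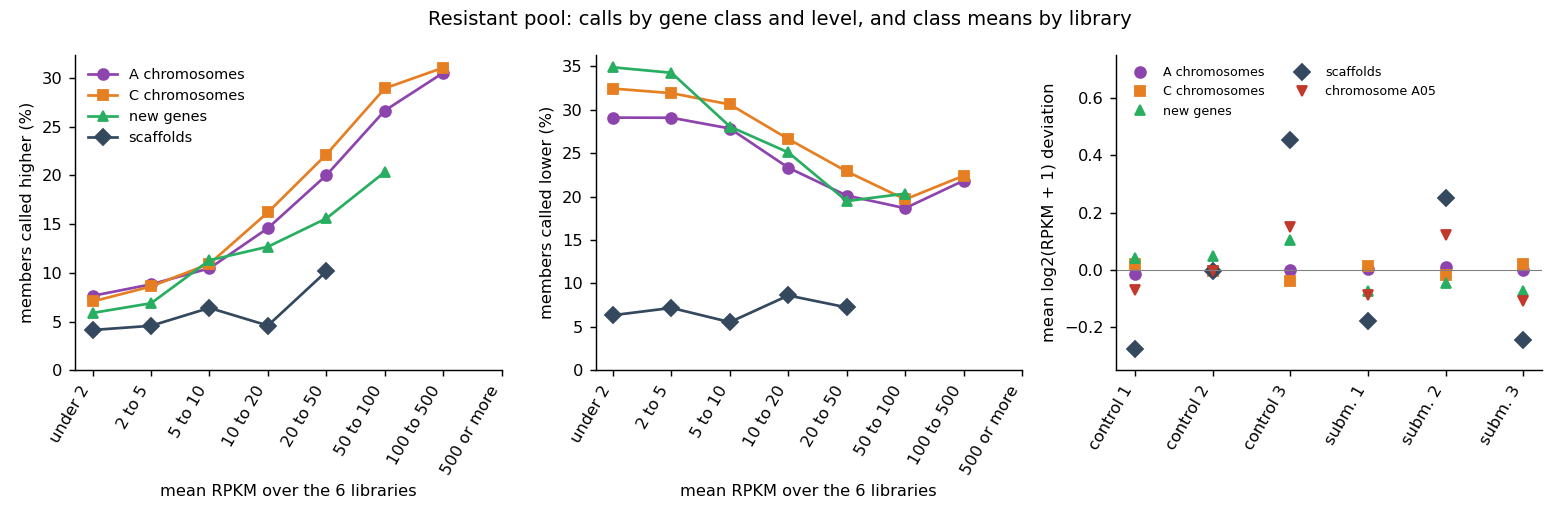
Percent of genes called higher and lower by class and mean RPKM, for combinations of at least 50 genes, and the mean log2(RPKM + 1) of each class and of chromosome A05 in each library as a deviation from the gene's mean and from the library's mean over all 54189 genes. New genes under 5 RPKM have the highest shares of falls, scaffold genes have few calls at any level, and scaffold genes reach 0.45 in control 3 and 0.25 in submerged 2.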

How the data were processed

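The authors deposited 1 table of RPKM for 109614 genes in 12 libraries. Per the submitters' processing notes, the tools were HISAT2, which aligns reads, and StringTie, which assembles transcripts; what each was used for, its settings, the build and the gene models are details not given in the sources used here. Per the labels' protocols, messenger RNA was isolated with oligo(dT) beads and the replicates are biological. RPKM is no count, so no count model was used.

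Values were taken as log2(RPKM + 1). The 57391 genes that reached 1 RPKM in 3 or more of the 12 libraries entered 1 limma model (3.58.1, R 4.3.3) of 4 group means whose prior variance follows the mean level. It had 8 residual degrees of freedom and a prior worth 3.345 more. The p-values are 2-sided and were adjusted over these genes by Benjamini-Hochberg, with a threshold of 0.05. Folds on this scale are too small for weak genes. The model was first tested on simulated data. Values per library used exact permutation tests. Python 3.11.15 with pandas 2.3.3 and matplotlib 3.10.9 was used for counts and plots.

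Relative depth was read from the lowest values of each gene; without absolute depth no counting interval can be given. Between any 2 libraries 71.59% or more of the genes had different values.

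The alternatives were a pseudocount of 0.1, no filter, a mean of at least 5 RPKM, median ratio scaling, quantile normalization, a replicate block, the 6 resistant libraries alone, other thresholds and numbers of genes, and each resistant library left out. The 2 genes with the greatest gain and the 2 with the greatest loss in mean RPKM, among called genes without overlap between groups, were named. The genes, classes and comparisons were chosen with earlier results of these data known. No sequences were used, since the identifiers matched no entry of the sequence tables.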

Additional observations from a re-analysis of the deposited data

Results flagged for a closer look

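A response that differed between the pools was called for 168 genes, 95 with a higher and 73 with a lower response in the resistant pool, by limma's test of the difference with an adjusted p under 0.05. BnaC06G0389200ZS, the named gene with the greatest loss of RPKM in the resistant pool, was one of them. Its difference was -2.93 log2 ± 0.41 (SE), with an adjusted limma p of 0.0226. Over the alternatives the difference ranged from -3.21 to -2.65 log2 and the adjusted limma p from 0.0192 to 0.0661.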

How the results depend on the processing

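Under 13 alternatives no gene called in one direction was called in the other. Rises stayed within 1.5 times of 6631 under all of them, from 4774 with a mean of at least 5 RPKM to 9765. Falls numbered 7290 with a mean of at least 5 RPKM, which tests only 29504 of the genes, 9231 after quantile normalization and 8176 after median ratio scaling, and 11429 to 12661 with a library left out. Genes whose response differed between pools numbered 106 with a mean of at least 5 RPKM and 22 to 104 with a resistant library left out. The labels do not say whether a replicate number marks a shared day or batch. Deviations of same-numbered libraries correlated at 0.219, -0.122 and -0.330, and not every library correlated best with its own number. The highest value, 0.418, was that of control 3 with submerged 2. With 3 libraries a group these values cannot show whether the libraries were paired. In a fit with a replicate block 6382 genes were higher and 14171 lower, and 34 differed between pools. The difference in genes at 1 RPKM or more was -1351.33 after median ratio scaling. That at 10 RPKM or more was 1160.67 after median ratio scaling, -2813.67 at a threshold of 5 RPKM and -367.667 at 20 RPKM. Without the 100 genes of the highest mean, the difference in the share of new genes was -0.642 percentage points and that of A genes -0.0907. The share of the 1000 most abundant genes differed by 1.74 points (exact permutation p = 0.3), and that of the 100 most abundant ranged from -0.631 to 0.453 with a library left out. The causes of these shifts were not tested. Absolute depth is unknown, so what could be detected among genes near 1 RPKM cannot be stated.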

Other observations

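Neighbours were compared in the order of the identifiers. Of the 6281 genes on chromosomes that were called higher, 1407 (22.4%) had a neighbour in that order that was also higher, while 14.0% of all 49764 genes placed on chromosomes had such a neighbour. Of the 13790 that were called lower, 4787 (34.7%) had a lower neighbour, against 29.0% of all. Neighbours were taken among the genes described here and the shares were not tested, and neighbouring genes may be copies of each other that share reads.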
